A study of Mus musculus with 12 samples.

Results

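Of the 24964 genes in the deposited count table, 10 that store, release or take up calcium in the sarcoplasmic reticulum were examined. They were chosen by gene symbol, with earlier results of these data known. The set held the calsequestrins Casq2 and Casq1, and the release channels Itpr1, Itpr2, Itpr3 and Ryr2. It also held the pumps Atp2a2 and Atp2a3, the pump inhibitor Pln and the junction protein Jph2. All 10 were present and all 10 passed the filter on low counts. RNA was sequenced from uterine tissue of pregnant mice at 13.5 days post coitum, in 12 libraries. The 4 PGR-B OE libraries had the genotype Myh11Cre; LSLPGRB/+ and the 4 PGR-A OE libraries Myh11Cre; LSLPGRA/+, where PGR-A and PGR-B are the isoforms of the progesterone receptor and OE stands for overexpression. The 4 control libraries carried Myh11Cre alone, so every group had the Cre driver. An LSL allele is silent until Cre removes its stop cassette. The Myh11 promoter is active in smooth muscle, that of blood vessels as well as that of the myometrium, the muscle layer of the uterus. The age of the mice is not given in the sources used here, nor whether replicates were separate animals. The p-values below therefore describe the spread among these libraries, some of which may be technical.

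Smooth muscle contracts when calcium rises in the cytosol, and part of that calcium is held in the sarcoplasmic reticulum. Calsequestrins bind calcium inside the reticulum. IP3 receptors (Itpr genes) and ryanodine receptors (Ryr genes) let it out, SERCA pumps (Atp2a genes) carry it back, phospholamban (Pln) restrains the pump, and junctophilin (Jph2) holds the reticulum close to the cell membrane. Casq2 is the calsequestrin of cardiac and much smooth muscle, and Casq1 that of fast skeletal muscle.

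Total counts per library ran from 31872534 to 33078483. The overexpressed gene was checked first: Pgr averaged 223 ± 26.5 CPM in PGR-B OE and 199.7 ± 38.5 CPM in PGR-A OE libraries, against 121 ± 16.5 CPM in controls (SD, n = 4 each; CPM stands for the count scaled to the TMM-adjusted size of its library). The Pgr counts are per gene and cannot tell the isoforms apart, so the isoform of each group rests on the labels. PGR-B OE and PGR-A OE libraries differed in Pgr by 0.16 on the log2 scale (edgeR quasi-likelihood adjusted p = 0.821). PGR-A OE replicate 4 stood apart, at 62.4 on the first principal component, against -31.0 to 7.58 in the other 11 libraries. Smooth muscle markers were abundant in every library, with summed levels of 13231.5 to 17552 CPM in PGR-B OE, 18249 to 25145 CPM in PGR-A OE and 13582 to 17734 CPM in control libraries. Decidua markers, 6 genes with Des also in the muscle list, summed to 2011 to 7277 CPM in controls, highest in replicate 4. Their sums were 2610 to 3235 CPM in PGR-B OE and 3000 to 4317 CPM in PGR-A OE. Of these genes, Prl8a2 ranged over 730 to 985 CPM in PGR-B OE, 5.02 to 1278 CPM in PGR-A OE and 174 to 5054 CPM in controls. The part of decidua in the values below was not tested.

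Because Casq2 differed most among the 10 genes and Casq1 is its close relative, the 250 bases before the start of each are shown, from RefSeq on GRCm38.p6. RefSeq entries were matched for 8 of the 10 members, not for Atp2a2 and Itpr1. The Casq2 window lies on the plus strand at chr3:102086165-102086414 and has a GC content of 41.6%, and the Casq1 window on the minus strand at chr1:172219896-172220145 with 61.6%. Capitals in the Casq2 sequence mark its only MEF2 site, from -69 to -60 of the start.
Casq2: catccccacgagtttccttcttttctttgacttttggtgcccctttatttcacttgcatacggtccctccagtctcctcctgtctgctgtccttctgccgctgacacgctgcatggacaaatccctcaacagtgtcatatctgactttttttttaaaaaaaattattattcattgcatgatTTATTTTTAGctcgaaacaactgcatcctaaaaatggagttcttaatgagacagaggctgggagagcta
Casq1: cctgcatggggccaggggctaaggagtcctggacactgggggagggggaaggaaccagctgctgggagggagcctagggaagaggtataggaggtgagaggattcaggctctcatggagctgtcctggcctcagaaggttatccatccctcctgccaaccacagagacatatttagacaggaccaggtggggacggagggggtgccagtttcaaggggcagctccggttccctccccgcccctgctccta
The MEF2 site, named for a family of muscle transcription factors, was searched on both strands. It occurred in 2.919% of 32817 promoter windows of the same length, and among the members in Casq2 alone. The CArG box of serum response factor, found in 1.469% of windows, was in none of the matched members' windows. ACANNNTGT, the core of the steroid receptor element, was in 5.835% of windows and among the members only in Pln, from -139 to -131. AGAACA, the element's shorter form, was in 16.08% and again only in Pln. The E-box CANNTG was in 66.225% of windows and in those of 6 members.

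Levels were compared between genes as CPM per kilobase of the length in the deposited table. Atp2a2, the SERCA2 pump, was the most abundant member in every group, at 61.9 CPM per kilobase in PGR-B OE, 57.3 in PGR-A OE and 61.1 in control libraries. Jph2 came next in PGR-B OE at 22.2 and in controls at 26.1, while in PGR-A OE libraries Casq2 at 34.1 and Jph2 at 32.3 overlapped. Casq2 stood at 17.0 in PGR-B OE, below Jph2 and above Itpr3 with no overlap. In controls it was at 8.20, where its range overlapped those of Itpr3 at 8.87 and Itpr1 at 6.95. Itpr3, Itpr1 and Atp2a3 filled the middle, and Itpr2, Pln and Casq1 came below them at 0.872 to 1.56, each overlapping its neighbour in the order. Ryr2 was lowest, at 0.0314 in PGR-B OE, 0.0377 in PGR-A OE and 0.0368 in control libraries.

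**Figure D1:**
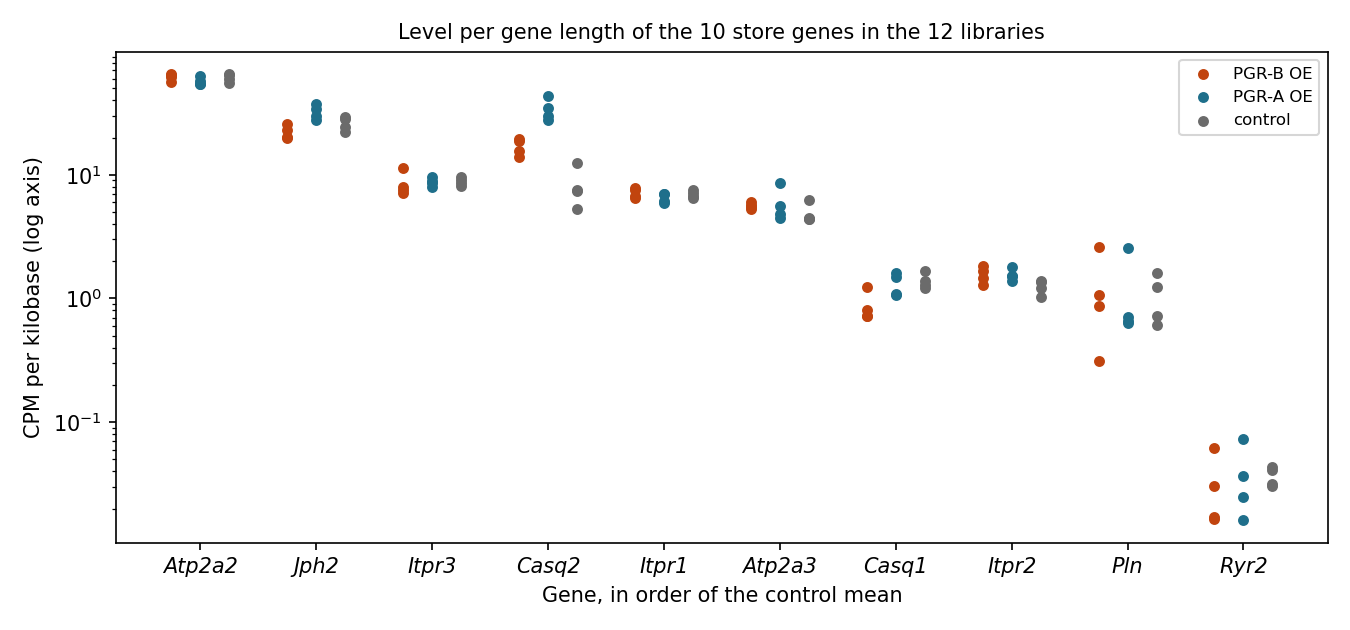
Level of the 10 calcium store genes in CPM per kilobase (log axis), by group, with 1 point per library. Atp2a2 lies on top in every group, Ryr2 lowest, and Casq2 lies beside Jph2 in PGR-A OE libraries and in the range of Itpr3 and Itpr1 in controls.

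Casq2 rose in PGR-A OE uterine tissue. It held 88.5, 71.6, 112 and 77.2 CPM in the PGR-A OE libraries, against 13.6, 19.2, 32.2 and 19.0 CPM in the controls. Every PGR-A OE library lay above every control, of which replicate 3 was highest. The rise was 2.06 on the log2 scale (SE 0.23, 95% interval 1.55 to 2.56), or 4.16-fold, and edgeR's quasi-likelihood test gave an adjusted p of 0.0019. Of all genes tested, 0.655% passed in this comparison, 0.482% as higher, and 5.01% were higher without overlap. Casq2 spans chromosome 3, 102086415 to 102146514, on the plus strand of GRCm38, and shares no exonic base with another gene model. The call held in each of 12 fits that left out 1 library.

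In PGR-B OE libraries Casq2 held 36.05, 40.1, 49.6 and 48.1 CPM, all above the highest control of 32.2 CPM and all below the lowest PGR-A OE library of 71.6 CPM. The difference from control was 1.05 (SE 0.23, interval 0.55 to 1.54) and did not pass edgeR's quasi-likelihood test (adjusted p = 0.106). Of 12 edgeR fits that left out 1 library, it passed in 1, that without control replicate 3 (1.33, adjusted p = 0.0126). Over the 12 fits it ran from 0.89, without control replicate 1, to 1.33, with adjusted p up to 0.314. In DESeq2 on all 12 libraries it was 1.05 and passed (adjusted p = 0.00113). Of all genes tested, 0.308% passed, and 3.07% were higher without overlap. Both overexpression groups were set against the same 4 control libraries, so these comparisons are not independent.

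Set directly against PGR-A OE, PGR-B OE libraries held less Casq2, with a log2 difference of -1.01 (SE 0.22, interval -1.496 to -0.52). The libraries did not overlap, but edgeR's adjusted p was 0.193, while DESeq2 gave -1.003 with an adjusted p of 0.00422. In this comparison 0.116% of genes passed and 2.35% were lower without overlap. In each of the 3 pairs the exact permutation p of Casq2 was 0.0286 (two-sided), the smallest that 4 libraries against 4 allow.

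**Figure D2:**
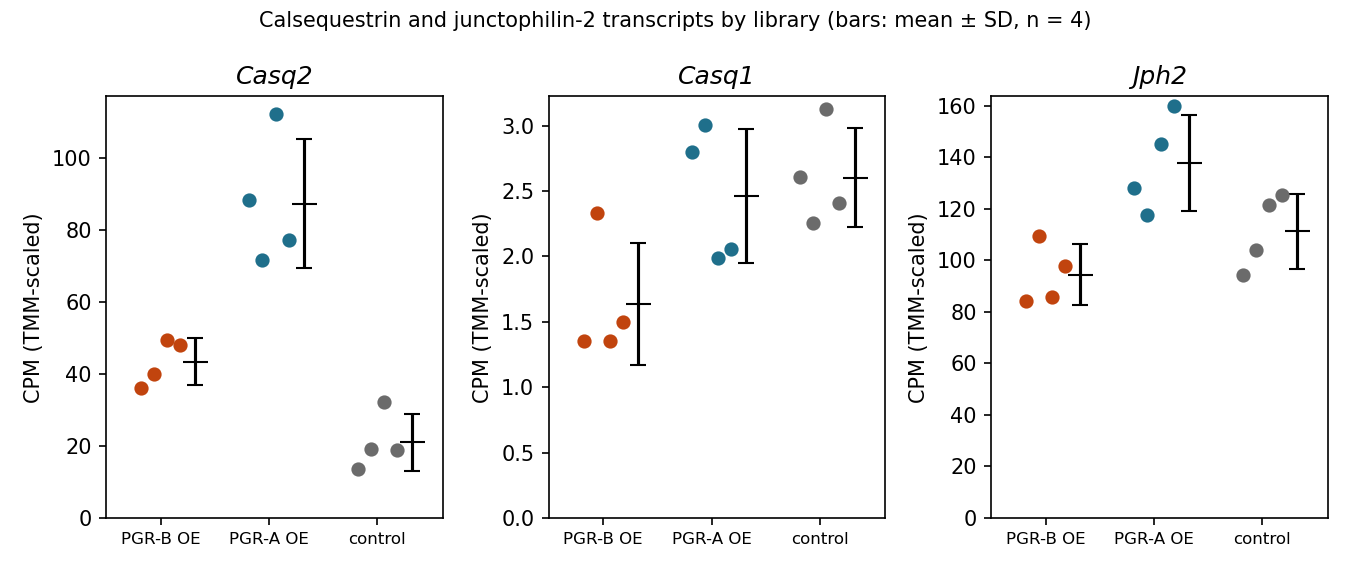
CPM of Casq2, Casq1 and Jph2 in each library, by group, with 1 point per library and the mean ± SD of each group. Casq2 libraries separate into 3 ranges, PGR-A OE at 71.6 to 112, PGR-B OE at 36.05 to 49.6 and control at 13.6 to 32.2 CPM.

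Smooth muscle markers lay higher, with Casq2, in PGR-A OE libraries. All 12 had positive log2 changes against control, where 50.1% of all genes tested did. None of the 12 passed edgeR's quasi-likelihood test (lowest adjusted p = 0.0729), beside 0.655% of all genes tested. Of these markers, 4 had an unadjusted p under 0.05, beside 15.4% of all genes tested. DESeq2 called 3 of the markers higher (Des, Myh11 and Synm), beside 1.9% of all genes tested, and limma voom called 0, beside 0.611%. The mean log2 CPM of the 12 markers was 9.26 ± 0.174 in PGR-B OE, 9.65 ± 0.261 in PGR-A OE and 9.30 ± 0.140 in control libraries (SD, n = 4 each). In tissue RNA, a change in the number of cells of a type and a change in RNA per cell cannot be told apart. Casq2 was therefore also given relative to that mean, as a difference of log2 values.

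Relative to the markers, Casq2 lay at -2.99, -3.29, -2.89 and -3.73 in PGR-A OE libraries, against -5.34, -5.13, -4.40 and -5.002 in controls. The ranges did not overlap, and the difference was 1.74 (exact two-sided permutation p = 0.0286), against 2.06 unscaled. PGR-B OE libraries lay at -3.91, -4.12, -3.50 and -3.78, also clear of the controls, with a difference of 1.14 (exact permutation p = 0.0286). Between PGR-B OE and PGR-A OE the difference was -0.60, and the ranges overlapped (exact permutation p = 0.0571).

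**Figure D3:**
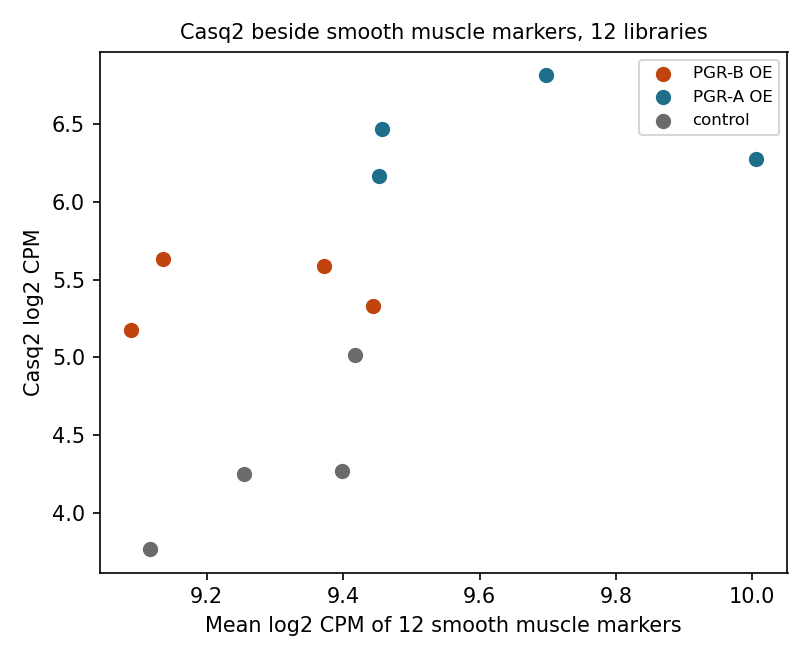
log2 CPM of Casq2 (vertical) against the mean log2 CPM of 12 smooth muscle markers (horizontal), 1 point per library, coloured by group. PGR-A OE libraries lie highest on both axes, and PGR-B OE libraries lie above controls at a similar marker level.

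Casq2 is also a cardiac gene, and cardiac markers were low throughout. Their summed level was 20.8 to 35.6 CPM in PGR-B OE, 17.3 to 28.1 CPM in PGR-A OE and 15.3 to 37.0 CPM in control libraries. Myh7, Myl2, Myl3 and Mybpc3 stayed under 0.2 CPM, and Nkx2-5 had 1, 1 and 0 counts in the PGR-B OE, PGR-A OE and control groups. In the same order of groups, Myh6 averaged 0.0783, 0.178 and 0.0537 CPM, on 10, 24 and 7 counts. Myl4 averaged 2.12, 2.42 and 1.88 CPM, and Tnni3 2.40, 2.55 and 2.22 CPM. Myl7 averaged 0.253, 0.266 and 0.227 CPM, and Nppa 1.35, 1.55 and 2.74 CPM. Of the 6 cardiac markers tested in PGR-A OE against control, 4 were higher and 2 lower in edgeR. None was called, and 2 had an unadjusted p under 0.05. These counts were the same in PGR-B OE against control. The log2 differences ran from -1.03 to 1.02 in PGR-B OE and from -1.43 to 0.40 in PGR-A OE. Over all genes tested, edgeR called 0.308% in PGR-B OE and 0.655% in PGR-A OE. The shares at an unadjusted p under 0.05 were 9.28% and 15.4%. Tnnt2 and Actc1 were the larger part, at 16.5 and 4.79 CPM in PGR-B OE, 10.7 and 3.25 CPM in PGR-A OE, and 8.10 and 8.72 CPM in control libraries. Skeletal muscle markers, which bear on Casq1, summed to 157 to 213 CPM in PGR-B OE, 163 to 237 CPM in PGR-A OE and 119 to 196.6 CPM in control libraries, mostly Acta1, with Myh4 at 0 in all 12.

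Fibroblast markers summed to 40954.5 to 51139 CPM in PGR-B OE, 39740 to 51139.5 CPM in PGR-A OE and 34453 to 36449 CPM in control libraries, with no overlap between either overexpression group and control. Most of the sum came from the collagens Col1a1, Col1a2 and Col3a1, of which Col1a1 averaged 15891 CPM in PGR-B OE, 15305 CPM in PGR-A OE and 11649 CPM in control libraries. Of the other fibroblast genes, Lum averaged 433 CPM in PGR-B OE, 481 CPM in PGR-A OE and 476 CPM in control libraries. Dcn averaged 1384 CPM in PGR-B OE, 1336 CPM in PGR-A OE and 1355 CPM in control libraries, and Pdgfra averaged 210 CPM in PGR-B OE, 204 CPM in PGR-A OE and 219 CPM in control libraries. Of the 7 markers, Col15a1, a basement membrane collagen, rose in PGR-A OE, to 920 ± 246 CPM against 494 ± 41.4 CPM in controls (edgeR quasi-likelihood adjusted p = 0.0392). It was the 1 marker of the 7 that passed there, beside 0.655% of all genes tested. In PGR-B OE libraries Col15a1 averaged 832 ± 145 CPM, with a range of 684 to 1030 CPM, against a highest control of 520 CPM. None of the 7 passed in PGR-B OE against control. Of all genes tested, 0.308% passed in that comparison and 3.07% were higher without overlap.

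Of 6 pericyte and vascular mural markers, 4 were higher and 2 lower in PGR-A OE than in control libraries. Of the 6, 1 passed, beside 0.655% of all genes tested. That gene, Cspg4, rose to 103.7 ± 3.26 CPM in PGR-A OE, against 74.0 ± 8.96 CPM in controls (edgeR quasi-likelihood adjusted p = 0.0251). Rgs5 averaged 338 CPM in PGR-A OE and 346 CPM in control libraries, and Abcc9 37.0 CPM in PGR-A OE and 41.2 CPM in control libraries. All 7 endothelial markers had positive log2 differences in PGR-A OE against control, 3 of them at an unadjusted p under 0.05 and none past the adjusted threshold. Over all genes tested, 50.1% were positive there and 15.4% had an unadjusted p under 0.05. The endothelial markers summed to 537 to 657 CPM in PGR-B OE, 603 to 697 CPM in PGR-A OE and 558 to 645 CPM in control libraries. All 7 differences between PGR-B OE and PGR-A OE were negative, where 51.2% of all genes tested were positive. The part of these cell types in the Casq2 values was not tested.

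Casq1 was low in every group and passed no test. It held 1.36, 2.33, 1.35 and 1.499 CPM in PGR-B OE, 2.80, 3.01, 1.99 and 2.06 CPM in PGR-A OE, and 2.61, 2.26, 3.13 and 2.41 CPM in control libraries. PGR-B OE replicate 2 overlapped both other groups, while the other 3 PGR-B OE libraries lay below them. The difference was -0.67 from control (SE 0.22, edgeR quasi-likelihood adjusted p = 0.376) and -0.59 from PGR-A OE (adjusted p = 0.540), and -0.08 between PGR-A OE and control. Casq1 lies on the minus strand of chromosome 1, 172209894 to 172219868. Its annotated exons share 156 bases with an antisense gene model, and the use of strand in counting is not given in the sources used here.

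Casq2 made up most of the calsequestrin RNA per length: 95.01 ± 1.67% in PGR-B OE, 96.1 ± 1.28% in PGR-A OE and 84.7 ± 3.89% in control libraries. Its level per length stood at 27.3 ± 2.47% of that of Atp2a2 in PGR-B OE, 59.1 ± 7.64% in PGR-A OE and 13.6 ± 5.47% in control libraries (SD, n = 4 each). These ratios carry the Casq2 difference described above and are given with no further test.

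The IP3 receptors supplied nearly all of the channel RNA that was counted among the members, and none passed in any comparison. Itpr3 held 68.3, 64.5, 102 and 71.3 CPM in PGR-B OE, 77.8, 79.6, 85.7 and 72.2 CPM in PGR-A OE, and 81.7, 86.3, 77.9 and 73.1 CPM in control libraries. Its log2 differences were -0.06 for PGR-B OE and -0.02 for PGR-A OE against control. Itpr1, the main IP3 receptor of many smooth muscles, ranged over 63.8 to 77.0 CPM in PGR-B OE, 58.4 to 69.1 CPM in PGR-A OE and 63.7 to 74.0 CPM in control libraries. All groups overlapped in both genes. Itpr1 lies on chromosome 6 (108213096 to 108551109), Itpr3 on chromosome 17 (27057304 to 27122223), and the exons of each share bases with antisense or unnamed gene models, 233 of them with Itpr3os for Itpr3.

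Itpr2 was the other member without overlap between PGR-A OE and control libraries, where 5.01% of all genes tested were higher without overlap. It held 17.9, 18.1, 16.5 and 21.1 CPM in PGR-A OE libraries, against 14.3, 16.4, 16.2 and 12.1 CPM in controls. The difference was 0.32 (SE 0.13) and did not pass edgeR's quasi-likelihood test (adjusted p = 0.269). PGR-B OE libraries at 21.6, 17.2, 19.8 and 15.3 CPM differed from control by the same 0.32 (adjusted p = 0.467), and overlapped it.

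Ryr2, the cardiac ryanodine receptor, was near the limit of counting, with 9 to 35 counts in PGR-B OE, 9 to 42 in PGR-A OE and 16 to 23 in control libraries. Its log2 differences from control were -0.22 in PGR-B OE and 0.04 in PGR-A OE. Their 95% intervals, -1.30 to 0.85 and -1.02 to 1.09, held 0 and also differences of either sign. Ryr3 was the most abundant ryanodine receptor, at 0.822 CPM per kilobase in PGR-B OE, 1.23 in PGR-A OE and 1.03 in control libraries.

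Neither pump passed in any comparison, and the groups overlapped in both. Atp2a2 held 320, 354, 367 and 375 CPM in PGR-B OE, 329, 308, 361 and 313 CPM in PGR-A OE, and 373, 316, 342 and 368 CPM in control libraries. The difference from control was 0.02 in PGR-B OE (95% interval -0.16 to 0.20) and -0.09 in PGR-A OE (interval -0.27 to 0.09). Atp2a3, the SERCA3 pump of non-muscle cells, ranged over 24.6 to 27.5 CPM in PGR-B OE, 20.4 to 39.9 CPM in PGR-A OE and 20.3 to 28.8 CPM in control libraries. Its difference of 0.26 in PGR-A OE against control was 0.01 without PGR-A OE replicate 4 and 0.40 without control replicate 3. Atp2a2 made up 91.6% of pump RNA per length in PGR-B OE, 90.7% in PGR-A OE and 92.6% in control libraries.

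Pln varied more between libraries than between groups. It held 2.15, 6.41, 0.773 and 2.63 CPM in PGR-B OE, 1.75, 1.62, 1.57 and 6.34 CPM in PGR-A OE, and 1.81, 3.08, 1.52 and 3.99 CPM in control libraries. PGR-B OE replicate 2 and PGR-A OE replicate 4 were the high libraries. The differences from control were 0.20 in PGR-B OE and 0.12 in PGR-A OE, with edgeR quasi-likelihood adjusted p of 0.952 and 0.9505. Without PGR-B OE replicate 2 the first was -0.48, and without PGR-A OE replicate 4 the second was -0.66. Pln spans chromosome 10, 53337667 to 53345987, and its annotated exons overlap those of Cep85l by 141 bases and those of the unnamed model Gm47644 by 1644 bases, both on the other strand.

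The 3 genes with the smallest root-mean-square difference from Pln in centred log2 CPM over the 12 libraries were Bche at 0.242, Pcp4 at 0.445 and Kcnn2 at 0.484, where Pln itself lay 0.835 from a flat line. Bche, which encodes butyrylcholinesterase, held 18.6 CPM in PGR-A OE replicate 4 and 15.6 CPM in PGR-B OE replicate 2, against 3.00 CPM in PGR-B OE replicate 3 and 4.72 to 10.2 CPM elsewhere. Pcp4, a calmodulin-binding peptide gene, held 60.0 CPM in PGR-A OE replicate 4, 50.9 CPM in PGR-B OE replicate 2 and 5.93 CPM in PGR-B OE replicate 3.

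**Figure D4:**
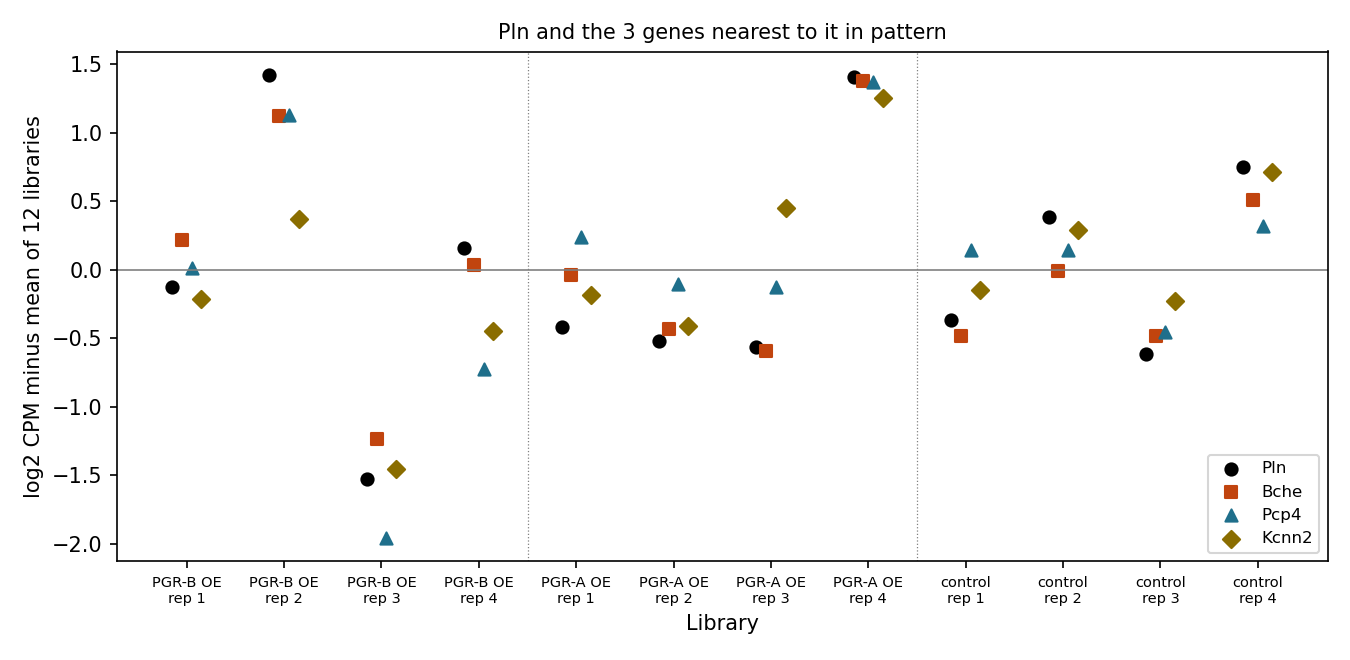
log2 CPM of Pln, Bche, Pcp4 and Kcnn2 in each library (1 symbol per gene), each centred on its mean over the 12 libraries. All 4 genes are lowest in PGR-B OE replicate 3 and high in PGR-A OE replicate 4, and Pln, Bche and Pcp4 are also high in PGR-B OE replicate 2.

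Jph2, on chromosome 2 from 163336242 to 163397993, held 84.0, 109, 85.7 and 97.9 CPM in PGR-B OE, 128, 118, 145 and 160 CPM in PGR-A OE, and 94.1, 104, 121 and 125 CPM in control libraries. Every PGR-A OE library lay above every PGR-B OE library, as in 2.35% of all genes tested. The difference between PGR-B OE and PGR-A OE was -0.55 (SE 0.12, interval -0.81 to -0.28), with an edgeR quasi-likelihood adjusted p of 0.195, while DESeq2 gave -0.54 with an adjusted p of 0.00948. PGR-A OE differed from control by 0.31 (adjusted p = 0.267) and PGR-B OE by -0.24 (adjusted p = 0.585).

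Jph2 and the smooth muscle markers lay highest in the same group, PGR-A OE. Relative to the mean of the markers, the Jph2 difference between PGR-B OE and PGR-A OE was -0.15 (exact two-sided permutation p = 0.0571). That between PGR-A OE and control was -0.05 (exact permutation p = 0.657). PGR-B OE differed from control by -0.20 on this scale (exact permutation p = 0.0857), against -0.24 unscaled. Actg2, the enteric gamma actin itself among the 12 markers, was the gene most like Jph2 over the 12 libraries, at a root-mean-square difference of 0.0992, where Jph2 itself lay 0.276 from a flat line. Dnajb5 and Nacad followed, at 0.111 each. The part of muscle content in these Jph2 values was not tested beyond this scaling.

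Of the 10 genes, 1 rose in PGR-A OE and none fell (edgeR's quasi-likelihood test, adjusted p under 0.05), 3 had an unadjusted p under 0.05, and DESeq2 and limma voom also called only Casq2. Over all genes tested edgeR called 0.482% higher there and 0.655% in either direction. DESeq2 called 1.9% of all genes tested higher there, and limma voom called 0.611%. In PGR-B OE against control edgeR and limma voom called 0, with 3 at an unadjusted p under 0.05, and DESeq2 called Casq2; over all genes tested DESeq2 called 0.932% higher, and limma voom called 0.244%. Between PGR-B OE and PGR-A OE, edgeR and limma voom called 0, again with 3 at an unadjusted p under 0.05, and DESeq2 called Casq2 and Jph2 lower; over all genes tested DESeq2 called 0.527% lower, and limma voom called 0.135%. Of all genes tested, edgeR called 0.308% in PGR-B OE against control and 0.116% between PGR-B OE and PGR-A OE. Over the whole table of tested genes, the share at an unadjusted p under 0.05 was 15.4% for PGR-A OE and 9.28% for PGR-B OE against control, and 8.04% for PGR-B OE against PGR-A OE. The median log2 difference of the members was 0.08 in PGR-A OE against control, beside 0.000507 over all genes tested. It was 0.03 in PGR-B OE against control, beside -0.00519, and -0.05 between PGR-B OE and PGR-A OE, beside 0.00450.

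**Figure D5:**
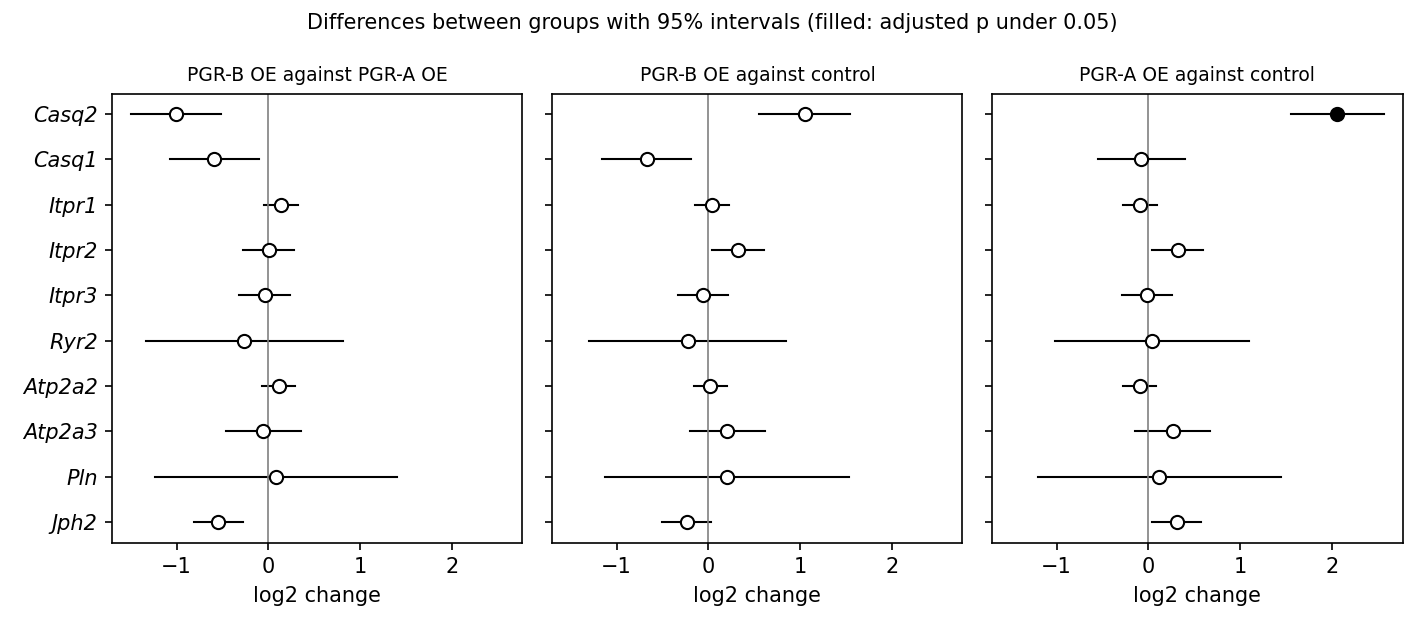
log2 difference with its 95% interval for each of the 10 genes in the 3 comparisons, from edgeR's quasi-likelihood fit. Casq2 lies farthest from 0 in each comparison, and Ryr2 and Pln have the widest intervals.

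A wider list of the store was taken from the other channels, couplers, luminal proteins, regulators and pumps, and 49 of its 54 genes in the table were tested. In PGR-A OE against control edgeR's quasi-likelihood test called 0 of the 49, beside 0.655% of all genes tested. Its unadjusted p was under 0.05 for 11 of the 49, beside 15.4% of all genes tested. DESeq2 called 4 of the 49 higher, Speg, Itpkb, Camk2g and Tmem38b, beside 1.9% of all genes tested. The count for limma voom was 0, beside 0.611%. Itpkb, an IP3 kinase, averaged 97.4 CPM in PGR-A OE and 72.6 CPM in control libraries (difference 0.42, edgeR quasi-likelihood adjusted p = 0.0516). Tmem38b, a counter-ion channel of the reticulum, averaged 42.7 CPM in PGR-A OE and 31.96 CPM in control libraries (0.42, adjusted p = 0.116). Camk2g, a calmodulin-dependent kinase, averaged 91.9 CPM in PGR-A OE and 69.3 CPM in control libraries (0.41, adjusted p = 0.0972). Speg, a kinase of the junction, averaged 93.4 CPM in PGR-A OE and 69.6 CPM in control libraries (0.43, adjusted p = 0.124).

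Of the same 49 genes, edgeR, limma voom and DESeq2 called 0 in PGR-B OE against control. Over all genes tested edgeR called 0.308% there, limma voom 0.244%, and DESeq2 0.932% as higher. In edgeR 4 of the 49 had an unadjusted p under 0.05, beside 9.28% of all genes tested. Between PGR-B OE and PGR-A OE, edgeR and limma voom called 0, beside 0.116% and 0.135% of all genes tested. DESeq2 called Camk2g lower, beside 0.527% of all genes tested. In edgeR 8 of the 49 had an unadjusted p under 0.05 there, beside 8.04% of all genes tested. Ryr3 averaged 12.7 CPM in PGR-B OE and 18.9 CPM in PGR-A OE (difference -0.58, edgeR quasi-likelihood adjusted p = 0.523). Among the other genes that the naming rule picked, Rcn2, a luminal calcium-binding protein, averaged 61.6 CPM in PGR-A OE and 49.5 CPM in control libraries, and Atp2b4, a plasma membrane calcium pump, averaged 257 CPM in PGR-A OE and 192.5 CPM in control libraries; neither passed. Of the 12 luminal calcium-binding proteins tested, 11 had a positive log2 difference in PGR-B OE and 7 in PGR-A OE against control, with 1 at an unadjusted p under 0.05 in each. Over all genes tested, 48.8% were positive in PGR-B OE and 50.1% in PGR-A OE against control, and the members of the group were not tested together. Other roles leaned the other way in PGR-B OE against control. Release channel regulators had 3 positive and 11 negative differences, and store leak and other reticulum channels 0 and 4. All 49 genes together had 25 positive and 24 negative differences in PGR-B OE, and 23 and 26 in PGR-A OE. The list's median log2 difference was -0.02 in PGR-A OE and 0.00 in PGR-B OE against control.

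Genes near Casq2 over the 12 libraries, among 13900 with a mean of at least 1 CPM, were Wfdc6a, Susd5, Enho, Astn1 and Brinp2. Their root-mean-square differences from Casq2 in centred log2 CPM ran from 0.291 to 0.442, where Casq2 itself lay 0.913 from a flat line. Brinp2 averaged 5.49 ± 0.985 CPM in PGR-B OE, 13.02 ± 4.78 CPM in PGR-A OE and 3.38 ± 1.15 CPM in control libraries. Susd5 averaged 15.5 ± 3.41 CPM in PGR-B OE, 28.4 ± 7.75 CPM in PGR-A OE and 7.87 ± 0.893 CPM in control libraries. Wfdc6a has a close paralog, Wfdc6b, so its count is uncertain.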

How the data were processed

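RNA from uterine tissue was sequenced as paired-end 75-base reads from TruSeq libraries, per the labels' protocols. The authors deposited 1 table of raw, whole-number counts for each gene and library, with gene lengths. The submitters' processing notes name STAR 2.7.0f, Bowtie2 2.2.5, featureCounts of Subread 1.6.4, and DESeq2, and the builds GRCm38 and mm10. What each did, which annotation was used, how multi-mapping reads were treated and whether counting used strand is not given in the sources used here, so counts of overlapping or near-identical genes are uncertain. Groups and replicate numbers came from the sample titles.

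edgeR 4.0.16 in R 4.3.3 was used on the counts. After filterByExpr on the 3 groups, 15561 of 24964 genes were tested, with TMM scaling and 1 robust quasi-likelihood fit over all 12 libraries, with Benjamini-Hochberg adjustment across all tested genes and a threshold of 0.05. Group values are mean ± SD of CPM. log2 CPM used a prior count of 2. Exact permutation tests over libraries were two-sided. DESeq2 1.42.0, limma voom 3.58.1, RLE scaling, no filter, fits on 8 libraries, a replicate block and leaving out each library were alternatives. Code was tested on simulated data. Positions are from GENCODE on GRCm38 and promoter sequence from RefSeq on GRCm38.p6.

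The 10 members and the gene lists were chosen with earlier results of these data known. All members were named in every comparison. From the wider store list the rule took every gene past the threshold, or up to 2 per role with the lowest p. The genes most like Casq2 (6), Jph2 and Pln (3 each) were those with the smallest root-mean-square difference of centred log2 CPM; 1 gene that this rule picks is not reported here. Relative values to smooth muscle markers for Jph2, and for Casq2 between the overexpression groups, were added after seeing the data.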

Additional observations from a re-analysis of the deposited data

Results flagged for a closer look

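Of 33 sets of 4 libraries examined, 3 held a library far from the others, past Dixon's 95% critical value for groups of that size. Chance gives about 1 such group in 20. Pln stood at 6.34 CPM in PGR-A OE replicate 4, against 1.57 to 1.75 CPM in the other PGR-A OE libraries, and this library also stood apart on the first principal component. Atp2a3 stood at 28.8 CPM in control replicate 3, against 20.3 to 20.8 CPM in the other controls. Casq1 stood at 2.33 CPM in PGR-B OE replicate 2, against 1.35 to 1.499 CPM in the other PGR-B OE libraries. The part of RNA quality or tissue makeup in these values was not tested.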

How the results depend on the processing

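The rise of Casq2 in PGR-A OE kept its call under every alternative run. In DESeq2 the genes called numbered 564 (296 higher, 268 lower) in PGR-A OE and 221 (145 higher, 76 lower) in PGR-B OE against control, and 126 (44 higher, 82 lower) between PGR-B OE and PGR-A OE, beside 102 (75 higher, 27 lower), 48 (44 higher, 4 lower) and 18 (9 higher, 9 lower) in edgeR; DESeq2 called 1 member in PGR-B OE against control (Casq2, 1.05) and 2 between PGR-B OE and PGR-A OE (Casq2, -1.003). Fits on the 8 libraries compared called 63 genes in PGR-A OE against control and 10 between PGR-B OE and PGR-A OE. Replicate numbers did not pair the libraries (same-number correlations of -0.257 to 0.190, best with their own number in 5 of 24 cases). With a replicate block, 69 and 32 genes were called in PGR-A OE and PGR-B OE against control and 11 between PGR-B OE and PGR-A OE; Casq2 was 2.10 in PGR-A OE and passed at 1.10 (adjusted p = 0.0359) in PGR-B OE against control, the 1 member called there. Reversed signs, all of values that did not pass, were in limma voom Ryr2 at -0.16 and Pln at -0.060 in PGR-A OE, Pln at -0.068 in PGR-B OE, and Itpr2 at -0.0029 and Pln at -0.0075 between them; with the replicate block Ryr2 at -0.067 and Itpr2 at -0.0069; and Jph2 relative to muscle markers at -0.050. The cause was not tested.

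Leaving out each library, the genes called ran from 32 to 109 in PGR-A OE against control, 22 to 100 in PGR-B OE against control and 11 to 31 between PGR-B OE and PGR-A OE; the fewest came without control replicate 1 (32) and control replicate 2 (22), and the most in the last 2 comparisons without PGR-A OE replicate 4. Of the counts of genes called, those that moved by over 1.5 times also came without control replicate 2 (43), PGR-A OE replicates 1 (44) and 2 (56) in PGR-A OE; control replicate 1 (24) and PGR-B OE replicate 4 (28) in PGR-B OE; and PGR-A OE replicates 1 and 2 and PGR-B OE replicate 1 (11 each) between them. Members called were 1 in PGR-A OE, 0 to 1 in PGR-B OE and 0 between them. Casq2 took values between 1.90 and 2.34 in PGR-A OE, between 0.89 and 1.33 in PGR-B OE, and between -1.09 and -0.86 for one against the other, and relative to muscle markers from 1.62 to 1.93 in PGR-A OE and 1.02 to 1.33 in PGR-B OE against control. Signs turned in some of these fits, with no call, for Casq1 (-0.19 to 0.022), Itpr3 (-0.056 to 0.025), Ryr2 (-0.51 to 0.29) and Pln (-0.66 to 0.40) in PGR-A OE; Itpr1 (-0.00018 to 0.089), Itpr3 (-0.23 to 0.020), Atp2a2 (-0.023 to 0.065) and Pln (-0.48 to 0.52) in PGR-B OE; and Itpr2 (-0.079 to 0.086), Itpr3 (-0.21 to 0.034), Ryr2 (-0.82 to 0.29), Atp2a3 (-0.17 to 0.19) and Pln (-0.60 to 0.86) between them. Ryr2 rested on 9 to 42 counts per library, and the part of depth in its intervals was not tested.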
